A study of Mus musculus with 8 samples.

Results

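Wide clusters are stretches of 100 nt or more over which Ptbp2-bound RNA fragments overlapped one another without a break. All mapped fragments (tags) were pooled, same-strand tags that shared at least 1 nt were joined, and clusters in which 10 or more tags lay over the highest base (the height) were kept on chromosomes 1 to 19. Of 21478 such clusters, 658 (3.06%, exact Clopper-Pearson 95% interval 2.84 to 3.30%) were 100 nt or wider and lay outside a stretch of chromosome 17 with 14 clusters, 4 of them wide, that was set aside. Height and width chose these clusters, so both are given as a description with no test.

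Ptbp2 was crosslinked to RNA in the cortex of CD1 mouse embryos at embryonic day 18.5. Both brains were wild-type by their titles and no treatment is named in the labels, and each gave 4 libraries. Those 4 come from a single animal, so a p-value here reflects technical spread and not spread among animals. Brain 1 held 1932995 tags (458293 to 545387 per library) and brain 2 held 1165859 (228424 to 340852), so that 62.4% of the pooled tags were from brain 1. No library without the antibody, of another genotype or of input RNA was analysed, so tag numbers reflect binding and transcript abundance together. Positions are mm9, counted from 1, and carry no gene name or sequence, because no annotation or genome of that build was used. For the same reason the labelled cortex could not be checked against its marker genes.

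Ptbp2 is the neuronal member of the polypyrimidine tract binding family, known as a regulator of alternative splicing in developing neurons. Proteins of this family carry several RNA-binding domains that each contact short pyrimidine-rich stretches, and known targets often hold more than one such stretch near a regulated exon. HITS-CLIP fixes protein to RNA with ultraviolet light and sequences the short fragments that remain bound. Neighbouring contacts on one RNA can therefore appear as separate piles of tags, and a cluster is wide where such piles touch or where scattered tags bridge them.

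The 658 wide clusters held 43184 tags, which was 1.39% of all tags and 9.61% of the tags in clusters of height 10 or more on these chromosomes outside the stretch set aside. Their width ran from 100 to 546 nt with a median of 117 nt, and 353 of them (53.6%) were under 120 nt. Only 32 (4.86%) reached 200 nt. The median wide cluster held 30 tags with 20 over its highest base, and 29 (4.41%) reached a height of 100. The 20806 narrower clusters had a median width of 41 nt and a median of 14 tags. Both brains contributed tags to all 658, and all 8 libraries did so to 408 (62.0%). On the opposite strand, 654 of the 658 stretches (99.4%) held no tag at all, and the most seen was 2 tags.

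The limit of 100 nt cut through a continuous range. There were 32 clusters of 99 nt and 37 of 100 nt. Just outside, the tallest were chr12:109832168-109832266 (height 111), chr5:19488327-19488425 (height 41) and chr16:40481076-40481174 (height 38), all on the plus strand. Just inside, the tallest were chr2:44959353-44959452 (minus strand, height 148), chr2:7048311-7048410 (minus strand, height 48) and chr16:6614019-6614118 (plus strand, height 48). All 6 had 1 summit, and 84.2 to 95.5% of their tags lay over it.

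Much of the width rested on single tags. If every base had to be covered by 2 tags, the median wide cluster shrank to 76 nt and 184 of the 658 (28.0%, interval 24.6 to 31.6%) still reached 100 nt. With 3 tags per base 89 did. Of the 182 clusters with 50 or more tags, 96 (52.7%) stayed at 100 nt or more with 2 tags per base. The number also moved with depth and with joining. Without library 1 of brain 1, the deepest, 407 clusters met the rule, and a 10-nt overlap between tags left 186.

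A summit was a local maximum of tag coverage with at least 5 tags and 20% of the cluster height, and coverage had to fall to 50% or less of the lower summit between neighbours. By this measure 345 wide clusters (52.4%, interval 48.5 to 56.3%) had more than 1 summit and 313 had a single one. There were 272 clusters with 2 summits, 63 with 3, 8 with 4, 1 with 5 and 1 with 7. Without library 1 of brain 1, 212 of 407 clusters had more than 1 summit. The number depended on what counts as a summit: 175 clusters had more than 1 if each needed 10 tags, and 522 if 3 tags were enough with no minimum share.

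More summits went with more width, which the joining of overlapping tags partly fixes. More than 1 summit was seen in 7.68% of clusters of 60 to under 80 nt and in 27.2% of those of 80 to under 100 nt. Within the wide set the share was 39.9% of the 353 clusters under 120 nt, 57.5% of the 200 clusters of 120 to under 150 nt, 84.9% of the 73 clusters of 150 to under 200 nt and 84.4% of the 32 wider ones. Among clusters with fewer than 20 tags 21.2% of 118 had more than 1 summit, against 56.2% of 194 with 20 to under 30, 67.1% of 164 with 30 to under 50, 54.5% of 123 with 50 to under 100 and 57.6% of 59 with 100 tags or more. Beyond 20 tags the share showed no steady rise.

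**Figure D1:**
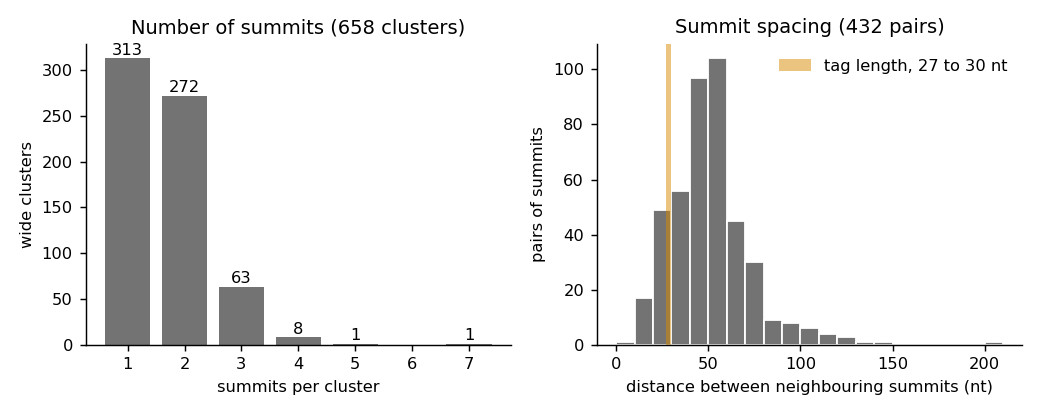
Left, number of wide clusters (vertical axis) by number of coverage summits (horizontal axis); 313 have 1 and 272 have 2. Right, number of pairs of neighbouring summits by their distance in nt in steps of 10 nt, with the tag length of 27 to 30 nt shaded; 201 of the 432 pairs lie between 40 and 60 nt apart.

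Neighbouring summits lay a median of 49 nt apart, with quartiles of 38 and 59.3 nt over 432 pairs. The distances ran from 9 to 202 nt. Piles with no chain of overlapping tags between them fall into separate clusters, so the joining rule itself limits large distances. From 40 to under 60 nt there were 201 pairs (46.5%), 67 pairs (15.5%) were under 30 nt, the length of the longest tags, and 16 (3.70%) were 100 nt or more. Clusters with 2 summits had a median spacing of 50.5 nt (272 pairs) and those with 3 or more had 46 nt (160 pairs). In single libraries the median ran from 46 to 52.5 nt, over 47 to 179 pairs per library. Whole tags of about 30 nt blur summits that are closer together. When each tag was reduced to 5 nt around its midpoint, 653 pairs were found at a median of 24 nt, so 49 nt describes piles of whole tags and is not a distance between contact sites.

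The piles were joined by few tags. At the lowest base between neighbouring summits the median coverage was 2 tags, and 185 of the 432 joins (42.8%) were made by a single tag. The deepest join held 31 tags. The second tallest summit had a median of 53.3% of the height of the tallest (quartiles 36.6 and 70%, 345 clusters), and in 49 (14.2%) it reached 80% or more. The tallest summit lay 5′ of the second in 183 of 345 clusters (53.0%, interval 47.6 to 58.4%), so neither side led beyond counting error. In the 313 clusters with 1 summit, the longer side lay 3′ of it in 145 (46.3%, interval 40.7 to 52.0%), which also includes 50%. Few tags lay away from the highest base in these clusters, with a median of 6 tags and 5 or fewer in 143 of them.

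Most tags of a wide cluster lay over its top summit. The share of a cluster's tags that covered the highest base had a median of 66.7% (quartiles 54.9 and 76.9%) and ran from 20.96 to 95.5%. In narrower clusters the median was 100%, and in those of 80 to under 100 nt it was 80.4%. Tags of 27 to 30 nt over one base cannot by themselves reach 100 nt, so no wide cluster can have 100%. In 570 wide clusters (86.6%) the share was 50% or more, and in 128 (19.5%) it was 80% or more. The median fell from 76.9% with 1 summit to 58.9% with 2 and 45.7% with 3 or more. The summit rule partly fixes this fall, because at most 50% of the tags over a further summit can also cover the top base. The single library medians were 63.1 to 66.7% in brain 1 and 66.7 to 75% in brain 2, over 163 to 435 clusters with 5 or more tags in the library. Many tags repeated a position: the median cluster had 16 distinct positions for its 30 tags, and the tallest had 164 for 7396. The fullest single position held a median of 22.2% of the tags, and 50% or more in 32 clusters (4.86%).

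**Figure D2:**
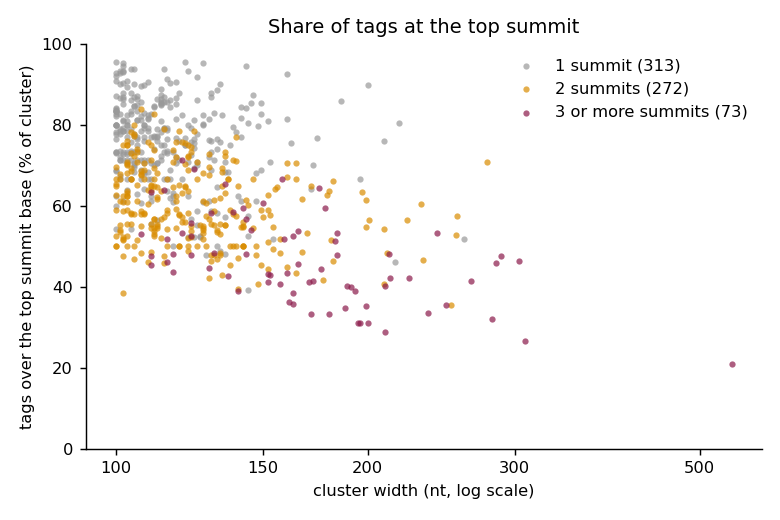
Share of a cluster's tags that cover its highest base (vertical axis, percent) against cluster width in nt (horizontal axis, log scale), 1 point per wide cluster, coloured by number of summits. The share falls from medians of 76.9% with 1 summit to 45.7% with 3 or more, which the summit rule partly fixes. The widest cluster, of 546 nt, has 20.96%.

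The widest cluster was that at chr19:5797547-5798092 (minus strand), with 477 tags over 546 nt. It also had the most summits, 7, and the lowest share at its top summit. From 5′ to 3′ the summits held 93, 25, 100, 89, 31, 30 and 24 tags, with gaps of 119, 79, 47, 54, 80 and 115 nt, so that 3 tall piles stood among 4 low ones. No join between them held more than 7 tags. As CPM, the tags per 1000000 tags of the library, it held 182, 216, 163 and 151 in libraries 1 to 4 of brain 1. In brain 2 the values were 56.1, 128, 90.95 and 197. Library 1 of brain 2 was the lowest and library 4 reached into the range of brain 1.

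The 3 tall summits of this cluster held 17.7, 17.2 and 18.6% of the tags of brain 1 and 24.1, 30.8 and 18.8% of the tags of brain 2. Each of the low ones held 6.11 to 7.85% in brain 1 and 2.26 to 4.51% in brain 2, where that is 3 to 6 tags. The cluster's share at the top summit was 17.1% in brain 1 (SD 2.79, n = 4) and 28.4% in brain 2 (SD 12.1, n = 4), with overlapping libraries. The log2 difference in odds was 1.15 ± 0.30 (SE), which did not pass the limma test over all clusters (adjusted p = 0.183).

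**Figure D3:**
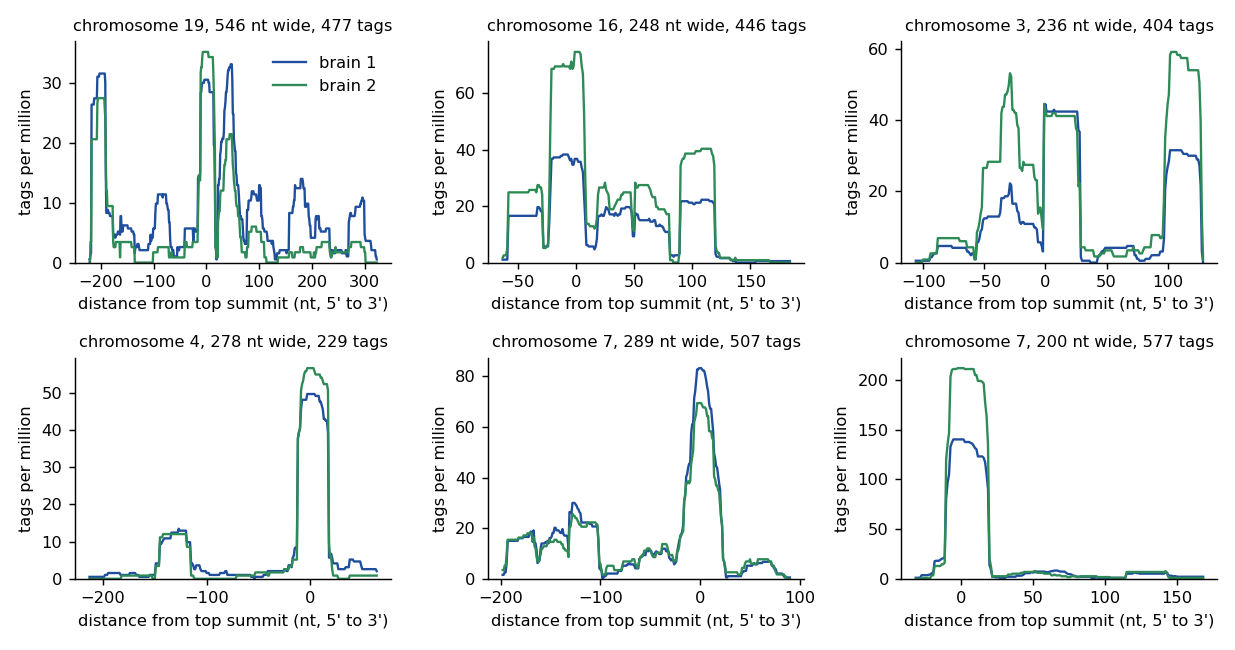
Tag coverage of 6 wide clusters in CPM (vertical axis) by distance from the top summit in nt, 5′ to 3′ (horizontal axis), with the 4 libraries of each brain pooled. In the chromosome 3 cluster of 236 nt the middle pile leads in pooled brain 1 (86 tags) and the 3′ pile in pooled brain 2 (69 tags), though libraries within each brain differ in which pile leads, while in both chromosome 7 clusters the same pile leads in each brain.

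The 5-summit cluster lay at chr16:57391540-57391787 (minus strand), with 446 tags over 248 nt. Its summits of 70, 158, 68, 67 and 90 tags were 32, 26, 25 and 60 nt apart, the first 3 gaps below the lower quartile of all pairs, and its first 3 joins held 17, 23 and 31 tags. It held 106, 89.5, 128 and 136 CPM in brain 1 and 191, 185, 179 and 223 in brain 2. Every library of brain 2 was above every library of brain 1. The scaled difference of 0.58 ± 0.16 on the log2 scale (SE) did not pass the limma voom test (adjusted p = 0.0557) and passed with scaling to total tags (0.76, adjusted p = 0.0164) and without library 4 of brain 1 (0.64, adjusted p = 0.0207).

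Other clusters with 4 summits were less deep. At chr1:170331191-170331456 (minus strand), summits of 20, 12, 40 and 58 tags were 80, 43 and 43 nt apart. A cluster of 213 nt on chromosome 18 had summits of 35, 8, 19 and 16 tags, 46, 66 and 49 nt apart, and one of 157 nt at chr3:55871338-55871494 (minus strand) had 11, 6, 15 and 22 tags. At chr19:5800716-5801024 (minus strand), the second widest cluster (309 nt, 83 tags) had 13, 17, 22 and 7 tags at its summits. The smallest of these summits hold so few tags that their order has little support.

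The other widest clusters differed in how far one pile led. At chr4:148554376-148554653 (minus strand, 278 nt), summits of 40 and 162 tags stood 127 nt apart and were joined by 1 tag. The share at the top was 66.4 ± 5.61% in brain 1 and 77.3 ± 7.16% in brain 2 (SD, n = 4), with overlapping libraries. At chr7:89920271-89920559 (plus strand, 289 nt), summits of 57, 88 and 242 tags were 42 and 128 nt apart. Each of these piles took nearly equal parts of both brains' tags: 11.1, 17.8 and 49.5% in brain 1, and 11.5, 16.5 and 44.5% in brain 2. The cluster at chr12:110784464-110784748 (plus strand, 285 nt) had summits of 50, 15 and 19 tags. That at chr2:6699181-6699436 (minus strand, 256 nt) had 21 and 85. On chromosome 5 from 28744822 to 28745082 (plus strand, 261 nt, 77 tags) a single summit of 40 tags was called, the widest cluster with only 1.

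In the plus strand cluster on chromosome 7 from 4097135 to 4097416 (282 nt, 56 tags), the summits of 6, 8, 14 and 18 tags were divided unequally. The summit of 18 tags held 38.3% of the 47 tags of brain 1 and none of the 9 of brain 2, a count that still allows a share of up to 33.3% there. Whole-cluster values were 25.7, 15.3, 28.3 and 27.7 CPM in brain 1 and 11.2, 6.08, 5.87 and 8.76 in brain 2. All libraries of brain 1 were higher. The cluster had too few tags for the test between brains.

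Of the 29 wide clusters with a height of 100 or more, 17 (58.6%) had 1 summit, beside 47.6% of all 658. The tallest of all lay at chr7:118219582-118219741 (minus strand), with 6851 of 7396 tags (92.6%) over one base. The other tags reached 160 nt in all. With the second tallest, at chr16:18533282-18533424 (minus strand, 1980 of 2093 tags, 94.6%), it held 21.97% of all tags of wide clusters. Tags per library ran from 733 to 1066 in the first and from 213 to 319 in the second, ranges of 1.45-fold and 1.498-fold where library depth ranged 2.39-fold. The third, at chr7:25763217-25763416 (minus strand), had 57 to 85 tags per library, a range of 1.49-fold. In the rest of the 10 tallest the range ran from 1.91-fold to 5.36-fold. It exceeded that of depth at chr11:108872961-108873184 (2.55-fold), chr1:56838992-56839233 (2.84-fold), chr7:89920271-89920559 (2.84-fold) and chr12:110803185-110803333 (5.36-fold). What sets the ranges narrower or wider than that of depth was not tested.

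Among the tall clusters, that at chr10:82418010-82418113 (minus strand) had the lowest share of the single-summit clusters among the 10 tallest, 505 of 930 tags (54.3%). The share was 57.8 ± 7.06% in brain 1 and 51.2 ± 6.98% in brain 2 (SD, n = 4), which overlapped. At chr19:5797207-5797352 (minus strand), 474 of 543 tags lay over the summit, and at chr12:110803185-110803333 (plus strand), 301 of 352 did. Summits of 347 and 134 tags lay 49 nt apart at chr6:49186467-49186606 (minus strand), and the second was 38.6% of the first. At chr1:56838992-56839233 (minus strand), summits of 56, 212 and 69 tags lay 29 and 44 nt apart. At chr11:108872961-108873184 (minus strand), 65, 308 and 125 tags lay 68 and 64 nt apart.

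Of the 5 clusters with the lowest shares among those with 50 or more tags, 3 are described above, and the other 2 each had 3 summits. At chr3:5860593-5860828 (plus strand), summits held 105, 136 and 130 tags, and the top one had 33.7% of 404 tags. The top summit held 62.3, 50, 20.8 and 30.8% in the libraries of brain 1 and 15.2, 13.04, 35.5 and 30.4% in those of brain 2. The libraries overlapped, and libraries 1 and 2 of brain 1 were the highest. From 5′ to 3′ the piles held 5, 33 and 10 tags, 6, 27 and 18, 17, 10 and 17, and 15, 16 and 16 in libraries 1 to 4 of brain 1. In brain 2 they held 8, 5 and 17 tags, 12, 6 and 19, 18, 22 and 19, and 24, 17 and 14. Within each brain the libraries thus differed in which pile led. At chr16:72339645-72339843 (plus strand), summits held 27, 33 and 37 tags, with 35.2% of 105 tags at the top.

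At the uneven end the highest share was 95.5%, at chr14:40236986-40237106 (minus strand), where 85 of 89 tags covered one base. It was 95.4% at chr3:55888706-55888807 (minus strand) and 95.2% at chr11:98627847-98627973 (plus strand, 180 of 189 tags). In these clusters the remaining 4, 4 and 9 tags made up the width.

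The same measure in each brain alone shows how far the form of a cluster recurs. Top summits of 5 or more tags were present in both brains in 507 wide clusters, and lay within 10 nt of each other in 355 (70.02%, interval 65.8 to 74.0%). The median distance was 5 nt and the upper quartile 12 nt. A window of 10 nt to either side covers 17.9% of a cluster of median width, but this is not the share that unlinked brains would give. Both brains had contributed to the pooled clusters, and the rule asked for 10 or more pooled tags over one base. That itself draws the top summits of the brains together, and its part in the recurrence was not tested. The share was 78.0% of 232 clusters with 1 summit (interval 72.1 to 83.2%), 66.2% of 216 with 2 (59.5 to 72.5%) and 52.5% of 59 with 3 or more (39.1 to 65.7%). Whether it differs between these classes was not tested. Tops of the brains that lie far apart tend to be called as separate pooled summits, so the summit rule itself favours this order.

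**Figure D4:**
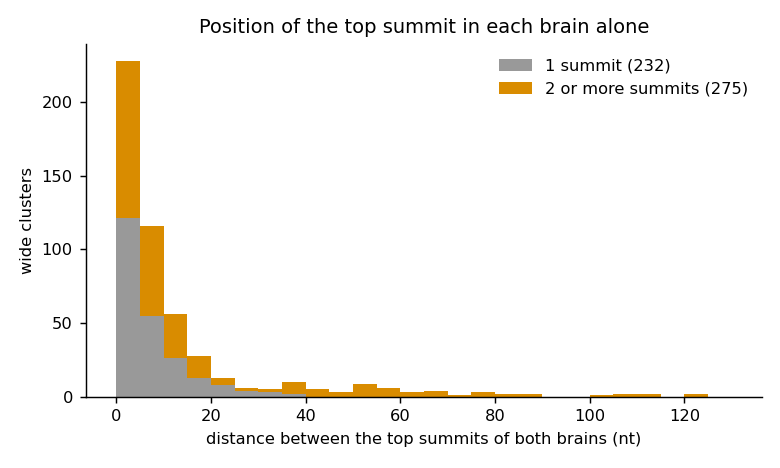
Number of wide clusters (vertical axis, stacked by number of summits) by the distance in nt between the top summits of brain 1 and brain 2, in steps of 5 nt. Of 507 clusters 355 lie within 10 nt, and all 44 that lie over 40 nt apart have 2 or more summits.

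Among the largest distances between the brains' top summits were 105 nt in the chromosome 3 cluster that starts at 5860593, where the pooled lead of the middle pile in brain 1 and of the 3′ pile in brain 2 was not shared by all libraries, and 108 nt at chr6:124863777-124863965 (minus strand). Of 275 clusters with 2 or more pooled summits and enough tags, 175 (63.6%) also had 2 or more in each brain alone, with 3 tags as the minimum there.

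The brains were then compared for the tags in each cluster with limma voom, fitted over all clusters of height 10 or more on any chromosome that passed a filter on low counts. The filter left 466 clusters, 95 of the 658 wide ones among them, and no wide cluster passed it through 1 brain alone. Of these 95, 2 passed an adjusted p of 0.05 (2.11%, where 1.29% of all tested did), 1 higher in brain 2 (1.07% of all) and 1 lower (0.215% of all). In bulk tissue, fewer bound cells of a type and less bound RNA per cell cannot be told apart. The test treats libraries of one animal as independent, and 0 of 135 wide clusters passed in limma voom once libraries with the same title letter were summed, while 20 had an unadjusted p under 0.05. Without library 1 of brain 1 none of 67 passed, with 17 at an unadjusted p under 0.05, and without its library 4 there were 4 that passed. For the summed libraries and without library 1 of brain 1, the share over all tested clusters is not given. The 20 and 17 therefore cannot be read as an excess of wide clusters. Only 1 passed without library 2 of brain 1, and likewise without library 3 of brain 2.

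Higher in brain 2 was the tallest cluster, on chromosome 7, with 1955, 2029, 2143 and 2112 CPM in brain 1 and 2741, 2576, 2717 and 4010 in brain 2. All libraries of brain 2 lay above those of brain 1. The log2 change was 0.34 ± 0.07 (SE, limma voom, adjusted p = 0.0108). It failed without library 1 (adjusted p = 0.168) or library 2 of brain 1 (0.0655) and with each position counted once per library (0.24, adjusted p = 0.130). Over its alternatives other than no count filter, adjusted p ran from 0.00396 to 0.491.

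Lower in brain 2 was the widest cluster, on chromosome 19, with scaled CPM (after the scaling factors of the test) of 190 ± 30.2 and 108 ± 45.9 in brains 1 and 2 (SD, n = 4). The log2 change was -0.90 ± 0.21 (SE, limma voom, adjusted p = 0.0143). On this scale the libraries of the brains did not overlap, while unscaled CPM did. It failed without library 1 of brain 1 (adjusted p = 0.0698), without library 1 (-0.57, adjusted p = 0.178) or library 3 of brain 2 (0.185), and with total scaling (0.0763). Over its alternatives other than no count filter, adjusted p ran from 0.00708 to 0.491. Its neighbour from 5798165 to 5798468, with summits of 24, 41 and 99 tags, had a log2 difference of -0.41 that did not pass (limma voom, adjusted p = 0.249) and passed with each position counted once per library (-0.54, adjusted p = 0.0475).

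**Figure D5:**
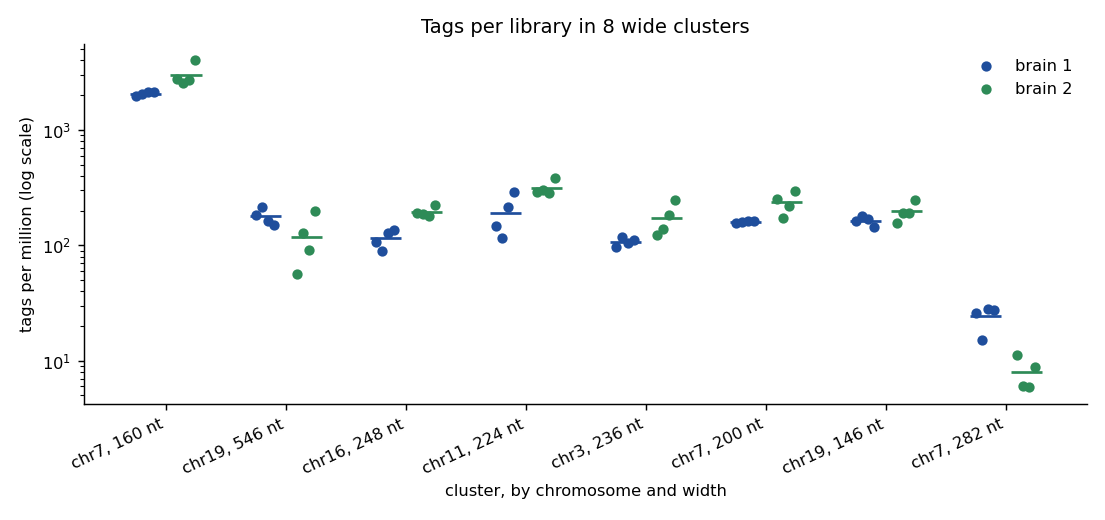
CPM in each library (points, log scale) and their mean per brain (lines) for 8 wide clusters, named by chromosome and width. The 4 libraries of brain 2 lie above those of brain 1 in the chromosome 7 clusters of 160 and 200 nt and those on chromosomes 16 and 3 (for chromosome 3 in unscaled CPM only), and below them in the chromosome 7 cluster of 282 nt.

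The other 93 tested clusters did not pass. Next in order of p, after the chromosome 16 cluster with 5 summits, was one at chr7:85615374-85615515 (minus strand), with scaled CPM of 33.8 ± 6.98 and 11.6 ± 8.45 in brains 1 and 2 (SD, n = 4, limma voom, adjusted p = 0.0817). The 3-summit cluster on chromosome 11 followed, with 204 ± 81.5 and 294 ± 25.9 (limma voom, adjusted p = 0.0819). It passed with scaling to total tags (adjusted p = 0.0323), with no count filter (0.00316) and without library 4 of brain 1 (0.00535). The chromosome 3 cluster of 236 nt (log2 change 0.46, limma voom, adjusted p = 0.123) passed with each position counted once per library (0.65, adjusted p = 0.00511) and without library 1 of brain 2 (0.0413). Unadjusted p was under 0.05 in 28 of the 95 (29.5%, where 19.3% of all tested were). With scaling to total tags this was 19 of the 95 and 96 of all 466, so the excess of wide clusters was not seen. With the scaling of the test, the libraries of the brains did not overlap in 21 (22.1%, where 12.9% did). Of these 21, 5 were higher in brain 2.

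Wide clusters leaned towards brain 1. The median log2 change of the 95 was -0.29, beside 0.02 over all 466. Scaling to total tags raised both, to -0.12 and 0.16. A log2 change below 0 was seen in 68 of the 95 with the scaling of the test and in 59 with total tags. Against the median of all clusters, 68 of the 95 lay below it under each of 3 scalings. Scaling moves all clusters nearly alike, so that sameness was fixed in advance and adds no support. Without any filter, 401 of all 658 (60.9%) had lower pooled CPM in brain 2, with a median log2 ratio of -0.19, beside 47.8% and 0.05 of the other 20820 clusters on these chromosomes. The members were chosen on pooled tags, of which brain 1 gave more, and the part of this in the lean was not tested.

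The share of tags at the top summit was compared the same way, as log odds with limma over 441 clusters with 5 or more tags in each library, 73 wide ones among them. None of the 441 passed an adjusted p of 0.05 (0%), while 79 (17.9%), 10 of them wide, had an unadjusted p under 0.05. In 271 of the 441 all tags covered the top base, so that their values follow depth alone. Over the 73 clusters with a tag off the top base in each library, 56 of them wide, 6 had an unadjusted p under 0.05, 5 of them wide. In 2 of the 73 wide clusters the libraries of the brains did not overlap (1.13% of all tested). The smallest p was at chr17:56573934-56574185 (minus strand), with 45.3 ± 3.22% at the top summit in brain 1 and 13.96 ± 14% in brain 2 (SD, n = 4, limma, adjusted p = 0.183). Without library 3 of brain 2 it passed (adjusted p = 0.0199), the only wide cluster to do so under the alternatives tried.

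Wide clusters lay close to other clusters on their strand. The nearest other cluster of height 10 or more was a median of 740 nt away, and 237 of 658 (36.0%, interval 32.3 to 39.8%) had one within 200 nt, beside 11.02% of the narrower clusters. Within 20 kb the shares were 88.3% and 52.0%. By chromosome, 5.23% of 459 clusters on chromosome 19 were wide (interval 3.38 to 7.68%), 4.57% of 1268 on chromosome 16 and 4.37% of 1670 on chromosome 2, against 1.76% of 1423 on chromosome 4. Without 1 stretch of 4.97 kb, chromosome 19 had 13 of 438 (2.97%).

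Linking wide clusters within 20 kb on one strand gave 497 groups, of which 415 were single clusters, and 31 groups of 3 or more held 141 of them (21.4%). The largest lay at chr12:110782392-110808009 (plus strand), where 13 of 27 clusters were wide. These were 100 to 285 nt wide, 6 had more than 1 summit, and the tallest held 301 tags. Summed CPM was 420 ± 51.6 for brain 1 and 369 ± 95.96 for brain 2 (SD, n = 4), and the libraries overlapped. Of its 5 tested members, 4 had a log2 change below 0, as had 68 of all 95 tested wide clusters, and none passed.

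The densest of the large groups was that at chr19:5796054-5801024 (minus strand), with 11 wide clusters among 21 in 4.97 kb. Its members ran from 104 to 546 nt and from 14 to 474 tags in height, and the share at the top from 20.96 to 90%. They included the widest, the second widest and the third widest cluster of all. Here 8 of the 11 were still 100 nt wide with 2 tags per base. Their summed CPM was 698 ± 64.9 for brain 1 and 642 ± 150 for brain 2 (SD, n = 4), which overlapped.

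On the minus strand of chromosome 2, 12 of 63 clusters from 6748036 to 6798017 were wide. The 2 tallest were one of 116 nt from 6787738 to 6787853, with 119 of 138 tags at 1 summit, and one of 156 nt from 6777307 to 6777462, with summits of 104 and 35 tags 39 nt apart. The 5 tested members had log2 changes of -0.80 to -0.19, and none passed. The median was -0.29 over all tested wide clusters and 0.02 over all tested clusters, so this range holds the lean of the whole set. At chr1:170324983-170351958 (minus strand), 11 of 34 clusters were wide and 7 of these had more than 1 summit, but only 3 kept 100 nt with 2 tags per base. A shorter run lay on the minus strand of chromosome 4, where 3 wide clusters followed one another from 148554111 to 148554798 and held 666 tags. Their summits were of 62 and 190, of 40 and 162 and of 18 and 62 tags, each time with the taller one 3′ of the other.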

How the data were processed

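The deposited file lists mapped tags of 27 to 30 nt, 1 row per tag, whose names open with a library code. All 8 codes matched a sample title, and 0 tags were left over. The deposited score was 0 throughout and was not used. Bowtie and the builds mm8 and mm9 are named in the submitters' processing notes, with no version. Tags on chromosome 1 reach 197194446, which is past the end of that chromosome in mm8, so mm9 was taken. Reads open with 4 degenerate bases and a G, per the labels' protocols. For repeated reads and for reads that map to several places, the handling is not given in the sources used.

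Clusters, coverage and summits were computed in Python 3.11.15, and brains were compared in R 4.3.3 with limma 3.58.1 (voom). A cluster was tested if at least 4 libraries reached the CPM that 10 tags make at median depth and the 8 libraries held 15 tags. Scaling factors were trimmed means of M values, leaving out 30% of the ratios and 5% of the levels on either side. Benjamini-Hochberg adjustment covered every tested cluster. Top-summit shares were compared as log odds with a pseudocount of 0.5 and weights from the counts. Both tests and the summit calls were tested on simulated data. The simulated summits were deeper and further apart than many of those called, so calls of shallow or close summits were not checked. Intervals are exact Clopper-Pearson 95% intervals and cover counting error only.

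Clusters named are the 10 widest, the 10 tallest, the 5 with most summits, the 5 lowest and 5 highest top shares among those with 50 or more tags, those past the test and 3 on each side of the width limit. Other clusters and all groups named were chosen after their values were seen. Members and rules were chosen with earlier results of these data known. Sequence content at summits was planned and not analysed here, as no genome of the build was used.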

Additional observations from a re-analysis of the deposited data

Results flagged for a closer look

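Of 118 sets of 4 libraries of one brain checked for a library far from the other 3, 7 had one. Chance alone would single out about 1 such set in 20. The fourth library of brain 2, the shallowest and the one with most repeated positions (18.6% of rows, 8.09 to 12.8% in the others), gave 3 of them. Its median share at the top summit was 75% where the other 3 had 66.7%, it held 4010 CPM of the tallest chromosome 7 cluster where the others held 2576 to 2741, and it held 74.4 CPM at chr2:6699181-6699436 where they held 41.1 to 45.6. Library 2 of brain 1 had a median top share of 63.1% where the others had 66.7%, and 17.5 CPM at chr5:28744822-28745082 where the others had 27.5 to 28.3. Library 2 of brain 2 had 26.3% of its tags at the top summit of chr19:5798165-5798468, against 63.6 to 69.6%. Library 1 of brain 2 had 83.3% (5 of 6 tags) at the top summit of chr14:40236986-40237106, where the others had 100% (4 of 4, 9 of 9 and 4 of 4 tags). Here and for the median top shares the other 3 libraries had equal values, in which case any difference is flagged.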

How the results depend on the processing

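With a 10-nt overlap to join tags there were 186 wide clusters, 113 with more than 1 summit, and the median top share was 62.4%. Counting a position once over the 8 libraries gave 302, with a height of 5 or more 1050, and with 20 or more 330. The demand for 2 tags on every base, added after the data were seen, left 184, of which 133 had more than 1 summit. Leaving out 1 library gave 407 to 568 wide clusters, 212 to 303 with more than 1 summit, median spacings of 48 to 50 nt, top shares of 65.7 to 67.7% and recurrence in 67.8 to 72.7%. Summits of 10 or more tags gave 175 clusters with more than 1 and a spacing of 51 nt, and summits of 3 tags with no minimum share gave 522 and 47 nt. A drop of 25% between summits gave a spacing of 36 nt, a drop of 75% gave 55 nt, and midpoints gave 24 nt. Midpoints within 10 nt of the summit gave a top share of 50%. Top summits recurred in 51.1% within 5 nt and in 80.7% within 15 nt. The causes of these shifts were not tested beyond what each setting itself removes.

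Between the brains, leaving out 1 library gave 0 to 4 wide clusters by tags and 0 to 1 by top share. Summing libraries of a letter gave 0 by tags (limma voom). Of the 135 wide clusters tested there, 20 had an unadjusted p under 0.05, with no share over all tested clusters given. The chromosome 7 change stayed between 0.26 and 0.42 and that on chromosome 19 between -1.08 and -0.57 with 1 library left out. Libraries with the same number shared only a number (correlations of their deviations -0.05 to 0.00). With the replicate number as a block the same 2 clusters passed (limma voom, adjusted p = 0.0351 for each), and the replicate block changed no other call. No result changed direction. In shallow clusters a summit of 5 tags and a join of 1 tag limit what can be read from number and spacing. Other windows for sequence content at summits were not run.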

Other observations

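A group of 4 wide clusters at chr2:77736043-77739959 (minus strand) ran against the lean of the set towards brain 1. It was noticed after the values were seen and has no test. Together they held 39.2 to 57.5 unscaled CPM in the libraries of brain 1 (mean 49.4 ± 8.46, SD, n = 4). Those of brain 2 held 75.95 to 97.2 (89.8 ± 9.46), with no overlap. The group of 5 wide clusters at chr2:44920601-44936708 (minus strand) did not overlap either, and went the other way. It held 78.8 to 89.5 unscaled CPM in brain 1 and 57.7 to 74.8 in brain 2. The share of all groups without overlap was not computed. The tallest member of the group that starts at 77736043, from 77736208 to 77736425, was the only one of its 4 tested. Its log2 change of 0.75 ± 0.26 did not pass (limma voom, adjusted p = 0.123).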
